A study of Mus musculus with 6 samples.

Results

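Pericytes and vascular smooth muscle cells, together called mural cells, wrap the endothelium of brain vessels. Described here are 9 genes that mark them, Pdgfrb, Rgs5, Acta2, Myh11, Tagln, Vtn, Kcnj8, Abcc9 and Notch3, chosen by gene symbol from the 47728 genes of the deposited count table. All 9 had a line in the table, were counted in every library and passed the filter on low counts. RNA sequencing compared the brain cortex of FAD5x mice (3 libraries), a model of Alzheimer's disease, with that of C57BL/6 mice labelled Control (3 libraries). The FAD5x line is known to carry human transgenes with familial disease mutations under a Thy1 promoter cassette that is active in neurons. Age, sex, the number of animals and any agent or allele beyond the strain names are not given in the sources used here. Whole cortex was extracted, so fewer mural cells and less RNA per cell cannot be told apart.

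Smooth muscle cells encircle arteries and arterioles and contract through an actin and myosin apparatus, whereas pericytes lie on capillaries within the basement membrane they share with endothelium. Endothelial PDGF-B recruits both through the receptor encoded by Pdgfrb, and Notch signals through the receptor encoded by Notch3 maintain the smooth muscle state. Brain pericytes and smooth muscle cells take part in the control of blood flow and of the blood-brain barrier, and vessel walls are a known site of amyloid deposits.

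Total counts were 17972967 to 24137936 in FAD5x and 17363946 to 18188112 in Control. FAD5x replicates 1 and 2 have related library names, and the labels do not say whether they share an animal. Compared gene by gene, their counts gave 56.8 of chi-square for each degree of freedom, where the remaining FAD5x pairs gave 36.9 and 53.6. Such a value cannot tell 2 animals from 2 samples of 1 animal. Both were kept as samples of their own, and whether they are independent is not known. Control replicate 1 had 3 counts of Xist, the transcript that silences an X chromosome in females, against 10346 to 22631 in the other 5 libraries, and 1042 counts of the Y-linked gene Ddx3y, against at most 1. By these counts Control replicate 1 had the pattern of a male and the other 5 libraries that of females. Sex was thus not balanced between the groups. Summed markers of cortical neurons were 3771, 6555 and 4237 CPM across FAD5x, against 3861, 3786 and 4492 CPM across Control. Gfap, the filament protein of reactive astrocytes, had 1508, 128.8 and 914 CPM across FAD5x, against 193, 169 and 119 CPM across Control, so that FAD5x replicate 2 lay within the Control range, apart from the other FAD5x libraries. Gfap was named after its values were seen. Whether each library is an animal of its own is not labelled, and p-values therefore reflect the spread between libraries alone, part of which may be technical. Levels are given in CPM, the count as a share of the scaled library total, and groups of 3 values run in the order of the replicates. A log2 fold change above 0 means higher in FAD5x, and ± after it is its standard error (SE).

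None of the 9 genes passed the test in FAD5x cortex (edgeR quasi-likelihood test, Benjamini-Hochberg adjusted p below 0.05). Over 17074 tested genes 3.15% were called, 1.39% lower and 1.76% higher, so that 0 of 9 is near this background. At an unadjusted p under 0.05, edgeR had 3 of the 9 lower and 0 higher, against 10.1% of all tested genes lower and 11.2% higher. DESeq2 called 2 of the 9 lower, Rgs5 and Acta2, and limma-voom called 0. Over all genes DESeq2 called 722 lower and 763 higher and limma-voom 211 and 227, where edgeR called 237 and 300. In 3 genes, Acta2, Myh11 and Rgs5, every FAD5x library was below every Control library, as in 13.2% of all tested genes. The log2 fold change was below 0 in 8 of the 9 genes and in 48.5% of all tested genes. Its median was -0.38 over the 9 genes and 0.02 over all tested genes, whose quartiles were -0.25 and 0.28.

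**Figure D1:**
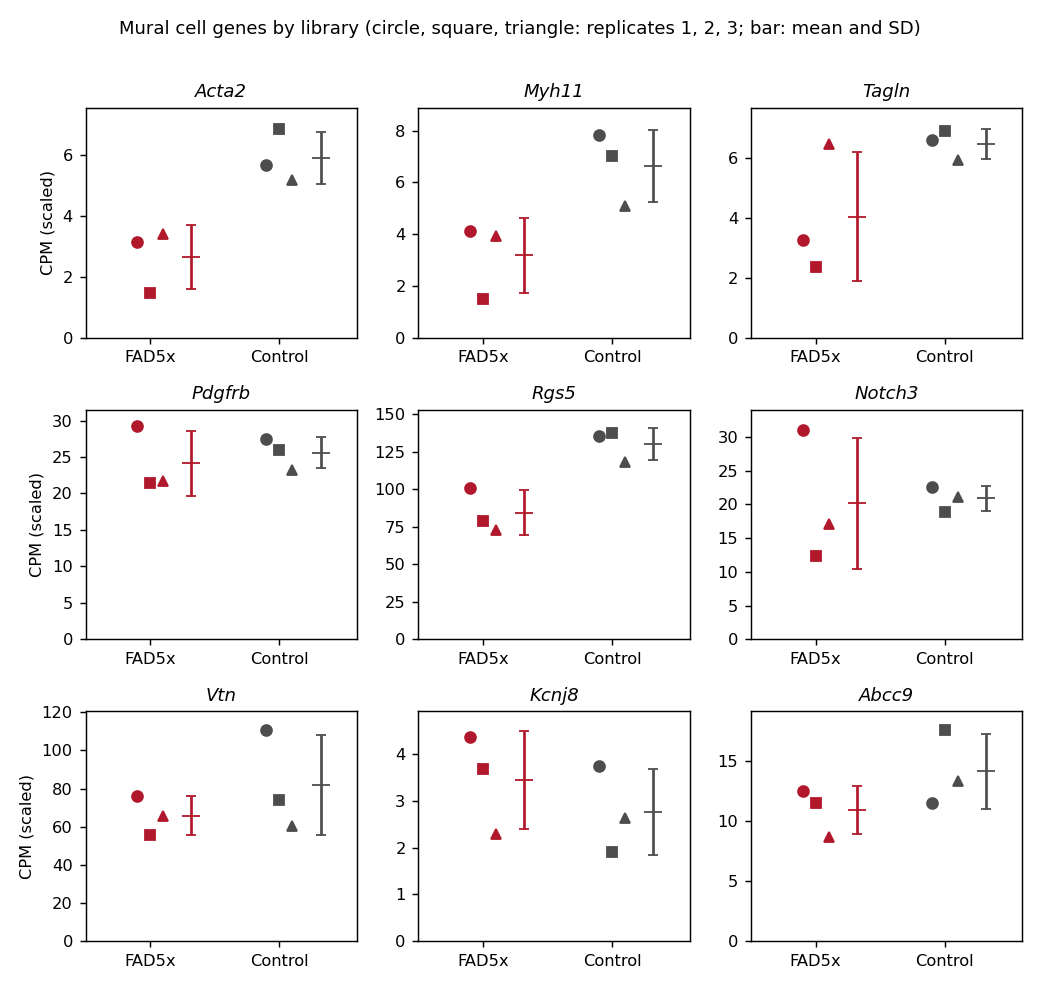
Scaled CPM (vertical axis, from 0) of the 9 genes in FAD5x and Control libraries, with a circle, square and triangle for replicates 1, 2 and 3 and a bar for the mean and SD of 3 libraries. The FAD5x libraries lie wholly below the Control libraries for Acta2, Myh11 and Rgs5, and the groups overlap for the other 6 genes.

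The contractile genes Acta2, Myh11 and Tagln had the largest differences of the 9 over all libraries, although Rgs5 differed more than Tagln without FAD5x replicate 1 (-0.78 against -0.55 on the log2 scale) and without FAD5x replicate 2 (-0.57 against -0.41). Acta2, the smooth muscle alpha-actin, stood at 3.13, 1.45 and 3.40 CPM across FAD5x replicates 1 to 3, against 5.67, 6.85 and 5.20 CPM across Control replicates 1 to 3. Its FAD5x libraries were all lower, and FAD5x replicate 2 was lowest, with 24.6% of the Control mean. The group means were 2.66 ± 1.05 CPM in FAD5x and 5.91 ± 0.85 CPM in Control (SD, n = 3 each). The log2 fold change was -1.15 ± 0.34, or 2.22-fold lower in FAD5x, with a 95% interval of -1.93 to -0.37 and an edgeR adjusted p of 0.107. Between 30 and 122 reads per library were counted for Acta2, so counting error is part of this spread.

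The letters before the start of Acta2 are shown because its FAD5x and Control libraries do not overlap and because serum response factor, the activator of smooth muscle contractile genes, binds a motif called the CArG box. The motif was searched as CC, 6 letters and GG, with at most 1 of the 6 letters other than A or T, a pattern that is the same on both strands. RefSeq promoter windows (build GRCm38.p6) were read for 6 of the 9 genes, over the 250 bases before the annotated start. No window was read for Pdgfrb, Myh11 or Tagln. The Acta2 window lies on the minus strand of chromosome 19, at chr19:34255374-34255623, and holds 2 matches, in capitals, whose first bases are 84 and 34 bases before the annotated start.
Acta2: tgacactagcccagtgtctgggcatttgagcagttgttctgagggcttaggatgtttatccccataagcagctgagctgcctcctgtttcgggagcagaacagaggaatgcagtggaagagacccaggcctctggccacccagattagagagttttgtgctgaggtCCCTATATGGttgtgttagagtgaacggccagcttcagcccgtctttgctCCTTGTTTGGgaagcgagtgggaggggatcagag
Of 32851 promoter windows, 8.59% held at least 1 such match and 0.67% held at least 2. With all 6 letters A or T the share was 1.47%. The Acta2 window is not among these, as each of its 2 matches has 1 other letter. The windows of Rgs5, Vtn, Kcnj8, Abcc9 and Notch3 held 0 matches. Of the contractile genes among the 9 only Acta2 was read, so the motif cannot be called particular to it. A match is a description of the letters, and the build of the counts is another, GRCm39.

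Myh11, the smooth muscle myosin heavy chain, had 4.12, 1.50 and 3.92 CPM across FAD5x replicates 1 to 3, against 7.82, 7.02 and 5.09 CPM across Control replicates 1 to 3. All FAD5x libraries were below all Control libraries, and FAD5x replicate 2 was again lowest, at 22.6% of the Control mean. The means were 3.18 ± 1.46 CPM in FAD5x and 6.64 ± 1.40 CPM in Control (SD, n = 3 each), and the log2 fold change of -1.06 ± 0.38 (95% interval -1.93 to -0.19) did not pass the test (edgeR adjusted p = 0.165). Tagln, the actin-binding protein transgelin or SM22, had 3.26, 2.37 and 6.48 CPM across FAD5x, against 6.61, 6.91 and 5.93 CPM across Control. Here FAD5x replicate 3 lay within the Control range while FAD5x replicates 1 and 2 lay below it. The log2 fold change of Tagln was -0.69 ± 0.36 (95% interval -1.51 to 0.13, edgeR adjusted p = 0.318). By annotation of an earlier build, an antisense gene, Gm48529, covers 62.4% of the exon bases of Tagln, and Pcsk7 covers 5.43% of them from the opposite strand. Gm48529 has no line in the deposited counts, so its level is not known. The strand setting of the counts is not given, so reads of such partners cannot be told apart. Pcsk7, a proprotein convertase gene, had 24.5, 23.8 and 25.4 CPM across FAD5x, against 26.4, 22.8 and 22.0 CPM across Control.

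Without FAD5x replicate 2 the log2 fold changes were -0.85 for Acta2, -0.72 for Myh11 and -0.41 for Tagln, and without FAD5x replicate 3 that of Tagln was -1.20. Without Control replicate 1 they were -1.18, -0.93 and -0.67 in the same order of genes. None of these 3 genes was called in any of these fits.

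Of 18 further genes listed with the contractile apparatus 16 were tested. Of these 16 edgeR called 0, with 3 lower and 2 higher at an unadjusted p under 0.05, while DESeq2 and limma-voom called 0. Their median log2 fold change was 0.12, with 9 above and 7 below 0. The genes with the highest level were Tpm1, a tropomyosin found in many cell types (log2 fold change 0.16 ± 0.15), and Myl6, a non-muscle and smooth muscle myosin light chain (0.38 ± 0.13). Myl9, the regulatory light chain of smooth muscle myosin, had 5.69, 4.31 and 8.52 CPM across FAD5x, against 9.58, 9.78 and 7.10 CPM across Control, with overlap. Cnn1, the smooth muscle calponin, and Actg2, the enteric gamma-actin, were at or below 0.54 CPM in every library and were not tested. Of the genes at an edgeR unadjusted p under 0.05, Myl6 and Sncg (log2 fold change 1.21 ± 0.49) were higher. Sncg encodes gamma-synuclein, which is not a contractile protein, and had 5 to 29 reads per library. Lower were Lmod1 (-1.03 ± 0.42), Cnn2 (-0.84 ± 0.29) and Flna (-0.52 ± 0.18). Myl9, Cnn1, Actg2, Sncg, Lmod1, Cnn2 and Flna were named after their values were seen. Of 14 transcription regulators of mural cells 12 were tested, and edgeR called 0, with 3 lower and 1 higher at an unadjusted p under 0.05, 3 lower by DESeq2 and 0 by limma-voom. Their median was -0.49, with 11 of 12 below 0. Mef2c, a transcription factor also abundant in cortical neurons, had the highest level, with 394, 511 and 375 CPM across FAD5x, against 571, 595 and 769 CPM across Control (log2 fold change -0.60 ± 0.19, edgeR adjusted p = 0.125). Mrtfb, a coactivator of serum response factor, had a log2 fold change of -0.01 ± 0.21. Srf, the gene of that factor, had one of -0.05 ± 0.13, with overlap. Myocd, the gene of another coactivator of it, had 0 to 6 reads per library and was not tested. Srf and Myocd were named after their values were seen.

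Rgs5, a regulator that shortens G-protein signals and a classical pericyte transcript, had the second highest level per exon length of the 9 genes and the smallest p. It stood at 101, 79.0 and 73.0 CPM across FAD5x replicates 1 to 3, against 135, 137 and 118 CPM across Control replicates 1 to 3. The groups do not overlap, and the FAD5x mean was 84.4 ± 14.7 CPM against 130 ± 10.5 CPM in Control (SD, n = 3 each). The log2 fold change was -0.63 ± 0.15 (95% interval -0.98 to -0.27, 1.54-fold lower in FAD5x), with an edgeR adjusted p of 0.0681. DESeq2 called it (adjusted p = 0.00752), as did edgeR with no filter on low counts (adjusted p = 0.0225). The same alternatives called Acta2 (adjusted p = 0.0241 with DESeq2 and 0.0446 with edgeR and no filter). Over all genes DESeq2 called 722 lower and edgeR with no filter 489, against 237 by edgeR with the filter. Over the 14 alternatives the adjusted p of Rgs5 ran from 0.00752 to 0.225 and that of Acta2 from 0.0241 to 0.284. The 250 bases before the start of Rgs5 lie at chr1:169655251-169655500 on the plus strand of chromosome 1 (RefSeq, GRCm38.p6). They are given because the groups of Rgs5 do not overlap either, and they hold no match to the searched motif. Whether the motif bears on the levels of Acta2 or Rgs5 was not tested.
Rgs5: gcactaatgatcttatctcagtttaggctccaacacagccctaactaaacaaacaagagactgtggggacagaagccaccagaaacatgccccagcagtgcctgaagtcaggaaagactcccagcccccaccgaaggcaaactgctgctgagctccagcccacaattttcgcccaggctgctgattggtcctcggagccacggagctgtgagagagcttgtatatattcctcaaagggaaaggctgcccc

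Pdgfrb, the receptor tyrosine kinase that holds pericytes on vessels, showed no difference larger than the spread between libraries. It had 29.2, 21.5 and 21.7 CPM across FAD5x replicates 1 to 3, against 27.5, 26.0 and 23.3 CPM across Control replicates 1 to 3. FAD5x replicate 1 was the highest of all 6 libraries and the other FAD5x libraries were the lowest. Its log2 fold change was -0.08 ± 0.16 with a 95% interval of -0.45 to 0.28 (edgeR adjusted p = 0.808), the narrowest interval of the 9 genes after that of Rgs5.
Of its pathway, 5 other PDGF ligands and receptors were tested and edgeR called 0 and had 0 at an unadjusted p under 0.05, while DESeq2 and limma-voom called 0. Pdgfra, the receptor of oligodendrocyte precursors and fibroblasts, had a log2 fold change of -0.28 ± 0.27, and Pdgfa, its main ligand, one of -0.10 ± 0.16. Pdgfb, the endothelial ligand of the receptor, was named after its values were seen and had 35.0, 37.8 and 33.5 CPM across FAD5x, against 33.6, 36.7 and 29.0 CPM across Control (log2 fold change 0.10 ± 0.13).

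**Figure D2:**
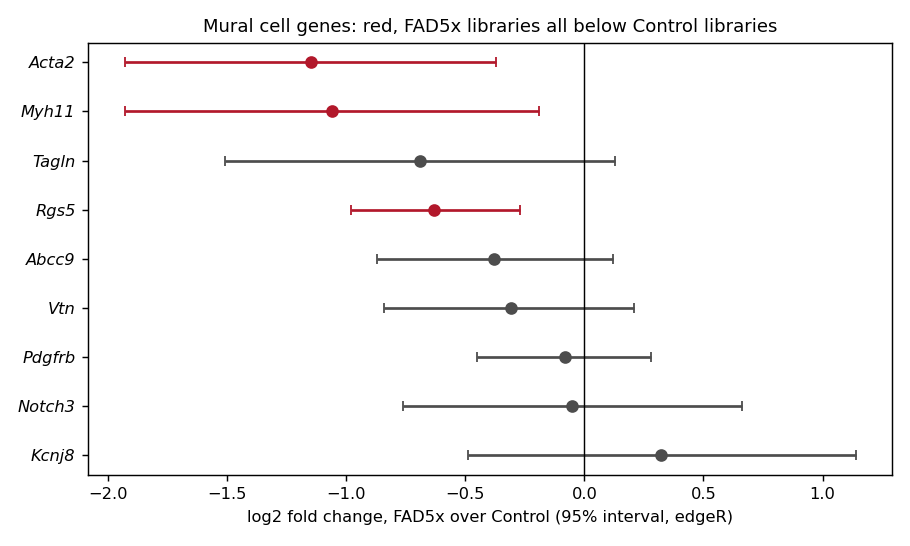
Log2 fold change of FAD5x over Control (horizontal axis) for the 9 genes, with the 95% interval of the edgeR fit. The intervals of Acta2, Myh11 and Rgs5, in red, lie below 0 and the other 6 include 0, and no gene passed the test after adjustment over all tested genes.

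Notch3, the Notch receptor of smooth muscle cells and pericytes, had, of the 9 genes, the widest spread within FAD5x relative to its spread within Control. It had 31.1, 12.4 and 17.0 CPM across FAD5x replicates 1 to 3, against 22.6, 18.9 and 21.1 CPM across Control replicates 1 to 3. FAD5x replicate 1 was above and FAD5x replicates 2 and 3 were below all Control libraries, with means of 20.2 ± 9.75 CPM in FAD5x and 20.9 ± 1.83 CPM in Control (SD, n = 3 each). The log2 fold change of -0.05 ± 0.31 (edgeR adjusted p = 0.951) changed sign without FAD5x replicate 2 (0.21), FAD5x replicate 3 (0.06) or Control replicate 1 (0.01). An antisense gene, Gm17276, covers 6.03% of its exon bases and had at most 1.53 CPM in any library.
Of 28 other Notch pathway genes 1 was called lower and 0 higher by edgeR, with 7 lower and 2 higher at an unadjusted p under 0.05, 4 lower and 0 higher by DESeq2, and 1 lower and 0 higher by limma-voom. Their median was -0.18, with 21 below and 7 above 0. Rbpj, the DNA-binding protein through which Notch receptors act, fell to 17.9, 22.4 and 15.3 CPM across FAD5x replicates 1 to 3, against 42.4, 47.5 and 43.0 CPM across Control replicates 1 to 3. Its log2 fold change was -1.26 ± 0.16 (edgeR adjusted p = 0.00875), and the call ended without Control replicate 2 (adjusted p = 0.0646). Hey2 and Heyl, Notch target genes of the vessel wall that were named after their values were seen, were not called by edgeR or limma-voom, whereas DESeq2 called both lower (adjusted p = 0.000987 for Hey2 and 0.0013 for Heyl). Heyl had 3.59, 6.25 and 6.06 CPM across FAD5x, against 32.3, 10.2 and 12.02 CPM across Control (log2 fold change -1.78 ± 0.47, edgeR adjusted p = 0.0903), with the highest value in Control replicate 1. Hey2 had 3.71, 4.26 and 6.17 CPM across FAD5x, against 24.4, 9.95 and 9.90 CPM across Control (-1.65 ± 0.40, edgeR adjusted p = 0.0683). Without Control replicate 1 the log2 fold changes of both were -1.07. Of other Notch target genes, Hes1 was higher in all FAD5x libraries. It had 10.8, 12.5 and 15.5 CPM across FAD5x, against 8.48, 9.55 and 9.34 CPM across Control (log2 fold change 0.50 ± 0.19, edgeR adjusted p = 0.171). Hey1 and Hes5 overlapped between groups, with log2 fold changes of -0.05 ± 0.17 and -0.34 ± 0.19. Hes1, Hey1 and Hes5 were named after their values were seen.

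Vtn, vitronectin, an adhesive matrix protein that brain pericytes make, had the highest level per exon length of the 9 genes. It stood at 76.3, 55.7 and 65.4 CPM across FAD5x replicates 1 to 3, against 111, 74.1 and 60.1 CPM across Control replicates 1 to 3. Control replicate 1 was highest and the groups overlap, with a log2 fold change of -0.31 ± 0.23 (95% interval -0.84 to 0.21, edgeR adjusted p = 0.484). Without Control replicate 1 that of Vtn was -0.03.

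Kcnj8 and Abcc9 encode the pore and the regulatory subunit of one ATP-sensitive potassium channel and are neighbours on chromosome 6. Kcnj8 was the single gene of the 9 with a fold change above 0. It had 4.37, 3.68 and 2.30 CPM across FAD5x replicates 1 to 3, against 3.74, 1.91 and 2.63 CPM across Control replicates 1 to 3. With 34 to 106 reads per library its groups overlap, and its log2 fold change was 0.32 ± 0.36 (95% interval -0.49 to 1.14, edgeR adjusted p = 0.652). Abcc9 had 12.5, 11.5 and 8.67 CPM across FAD5x, against 11.6, 17.6 and 13.4 CPM across Control, with overlap and a log2 fold change of -0.38 ± 0.22 (95% interval -0.87 to 0.12, edgeR adjusted p = 0.364). The related channel of neurons has the subunits Kcnj11 and Abcc8. They had log2 fold changes of 0.46 ± 0.31 and 0.23 ± 0.21, and edgeR called 0 of the pair and had 0 at an unadjusted p under 0.05, while DESeq2 and limma-voom called 0.

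Levels between genes were set side by side as CPM per kilobase of exon. In FAD5x the order was Vtn (mean 32.4), Rgs5 (18.6), Pdgfrb (4.40), Notch3 (2.49), Tagln (2.03), Kcnj8 (1.35), Abcc9 (1.30), Acta2 (1.21) and Myh11 (0.419). In Control it was Vtn (40.2), Rgs5 (28.6), Pdgfrb (4.67), Tagln (3.26), Acta2 (2.69), Notch3 (2.58), Abcc9 (1.69), Kcnj8 (1.08) and Myh11 (0.874). The ranges over libraries met between each pair of neighbours from Notch3 to Acta2 in FAD5x. In Control they met between Vtn and Rgs5, between neighbours from Tagln to Notch3 and between neighbours from Abcc9 to Myh11. In FAD5x, Vtn at 27.4 to 37.6 lay above Rgs5 at 16.1 to 22.2. Acta2 ranged from 0.662 to 1.55 in FAD5x and from 2.37 to 3.12 in Control on this scale.

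A ratio of counts to Pdgfrb within a library does not depend on library size or scaling. Rgs5 had 3.46, 3.68 and 3.37 counts per Pdgfrb count across FAD5x replicates 1 to 3, against 4.91, 5.27 and 5.08 across Control replicates 1 to 3. The ratio was close within each group and lower in all FAD5x libraries, with a difference of -0.54 on the log2 scale. Acta2 had 0.107, 0.0677 and 0.157 counts per Pdgfrb count in FAD5x and 0.206, 0.263 and 0.224 in Control, a log2 difference of -1.14. Myh11 had 0.141, 0.0700 and 0.181 across FAD5x, against 0.284, 0.270 and 0.219 across Control, a log2 difference of -1.08. For these 3 genes the 2-sided exact permutation p was 0.1, the smallest that 3 against 3 libraries can give, and 0.267 when adjusted over the 8 ratios. The other 5 ratios overlapped between groups, with log2 differences from -0.71 for Tagln to 0.42 for Kcnj8 and exact permutation p from 0.3 to 0.9.

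**Figure D3:**
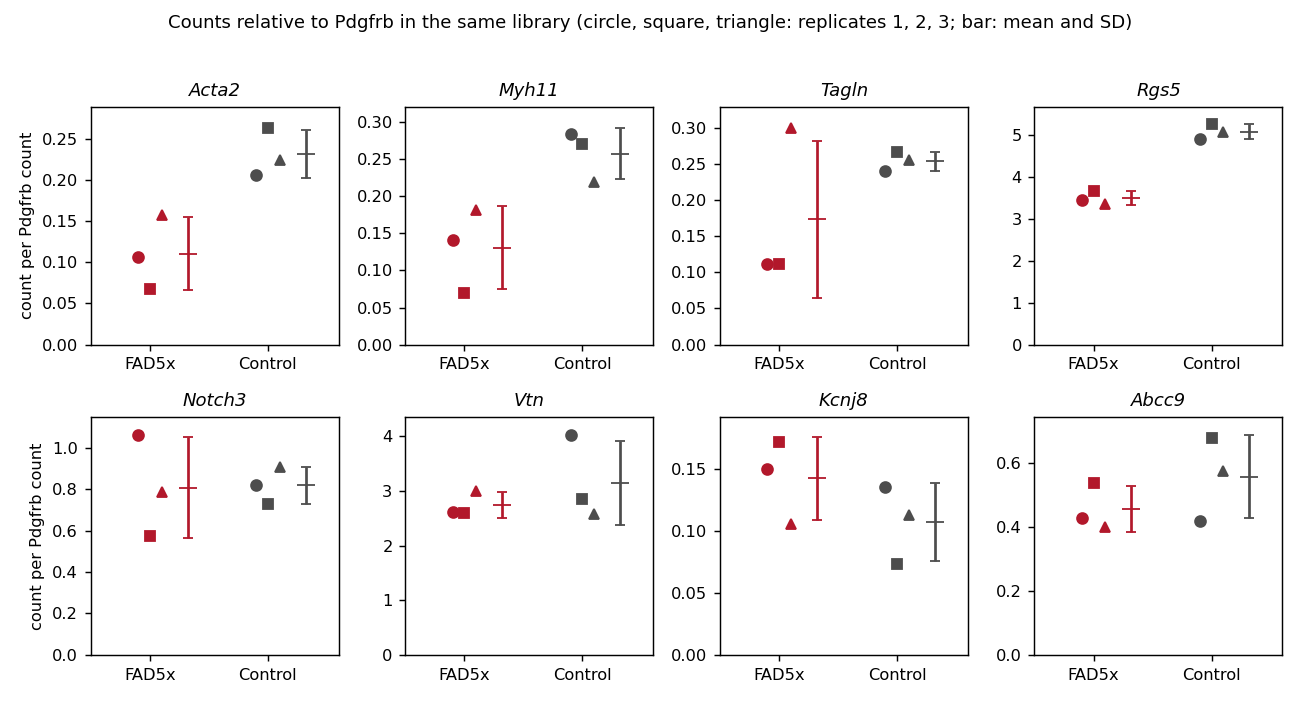
Counts per Pdgfrb count in the same library (vertical axis, from 0) for the other 8 genes in FAD5x and Control, with a circle, square and triangle for replicates 1, 2 and 3 and a bar for the mean and SD. The ratios of Acta2, Myh11 and Rgs5 lie lower in all FAD5x libraries, and the other 5 overlap.

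Other vascular genes were set beside the 9 genes. Of 20 other pericyte markers 19 were tested, and edgeR called 1 lower, Slc38a11, and 0 higher, with 4 lower and 1 higher at an unadjusted p under 0.05, 2 lower and 1 higher by DESeq2, and 1 lower and 0 higher by limma-voom. Their median was -0.30, with 15 of 19 below 0. Slc38a11, a solute carrier of the amino acid transporter family, fell to 0.330, 0.436 and 0.470 CPM across FAD5x, against 1.60, 2.30 and 1.96 CPM across Control (log2 fold change -2.25 ± 0.40, edgeR adjusted p = 0.0244). Cspg4, the NG2 proteoglycan shared with oligodendrocyte precursors and named after its values were seen, had a log2 fold change of -0.01 ± 0.19. The libraries did not overlap in 2 of the 19 that were higher and in 4 that were lower. The shares over all tested genes were 14.1% higher and 13.2% lower. The 2 were Mcam and Ndufa4l2, both named after their values were seen. Mcam had 28.7, 17.5 and 21.2 CPM across FAD5x, against 13.2, 13.1 and 15.2 CPM across Control (log2 fold change 0.70 ± 0.20, edgeR adjusted p = 0.0963). Ndufa4l2 had a log2 fold change of 0.58 ± 0.32 (edgeR adjusted p = 0.341).

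Of 14 basement membrane genes 2 were called lower and 0 higher by edgeR, with 11 lower and 0 higher at an unadjusted p under 0.05, 7 lower and 0 higher by DESeq2, and 2 lower and 0 higher by limma-voom. All 14 were below 0 and their median was -0.72. Nid1, the laminin and collagen linker nidogen, fell to 6.27, 5.62 and 7.16 CPM across FAD5x, against 59.5, 30.6 and 28.8 CPM across Control (log2 fold change -2.64 ± 0.30, edgeR adjusted p = 0.00575). Lama4, a laminin chain of vessels, fell by 1.40 ± 0.25 on the log2 scale (adjusted p = 0.0260). Of 22 receptors and messengers of vascular tone 19 were tested and 1 was called lower and 0 higher by edgeR, with 6 lower and 0 higher at an unadjusted p under 0.05, 3 lower and 0 higher by DESeq2, and 1 lower and 0 higher by limma-voom. Adra1a, an alpha-1 adrenergic receptor, fell to 9.36, 9.50 and 12.2 CPM across FAD5x, against 26.6, 20.3 and 19.9 CPM across Control (log2 fold change -1.11 ± 0.18, adjusted p = 0.0207).

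Of 20 brain endothelium markers edgeR called 3 lower and 0 higher, with 11 lower and 1 higher at an unadjusted p under 0.05, 6 lower and 0 higher by DESeq2, and 2 lower and 0 higher by limma-voom, and their median was -0.51. These were Kdr, a VEGF receptor (log2 fold change -1.10 ± 0.20, edgeR adjusted p = 0.0282), Slc7a5, an amino acid transporter (-0.69 ± 0.14, 0.0425), and Itm2a, a membrane protein (-0.83 ± 0.18, 0.0487). Pecam1, a pan-endothelial adhesion molecule named after its values were seen, had a log2 fold change of 0.01 ± 0.21. Of the 20 markers 14 were below and 6 above 0. The libraries did not overlap in 9 lower and 1 higher, against 13.2% lower and 14.1% higher of all tested genes. The 1 was Egfl7 (0.42 ± 0.15, edgeR adjusted p = 0.167). Ly6a (0.97 ± 0.47) and Vwf (0.60 ± 0.37) overlapped and were highest in FAD5x replicate 2. Egfl7, Ly6a and Vwf were named after their values were seen. Calls of Slc38a11, Lama4, Adra1a, Kdr, Slc7a5 and Itm2a each ended without any one Control library, with adjusted p from 0.0523 to 0.172, while those of Nid1, Col3a1 and Eln held. Without FAD5x replicate 1 those of Slc38a11, Lama4, Adra1a, Slc7a5 and Itm2a also ended, with adjusted p from 0.0671 to 0.108, and without FAD5x replicate 3 those of Kdr, Slc7a5 and Itm2a, with 0.0536 to 0.0728. The call of Itm2a also ended with library totals only (adjusted p = 0.0853), a mean CPM of at least 1 (0.0538), limma-voom (0.0537) and a prior that is not robust (0.0523).

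**Figure D4:**
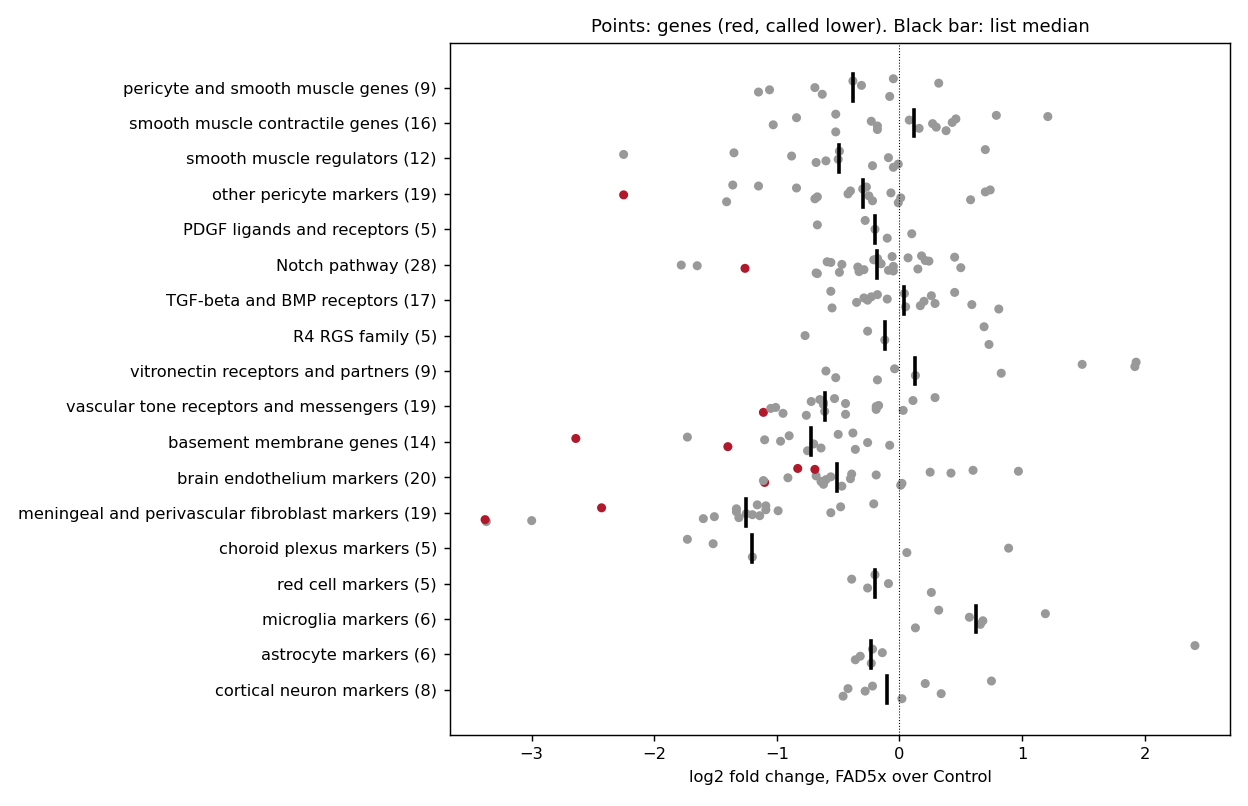
Log2 fold change of FAD5x over Control (horizontal axis) of tested genes by list, with the number tested in brackets, genes called lower in red and a black bar at each list median. The medians are -0.38 for the 9 pericyte and smooth muscle genes, -0.72 for basement membrane genes and -1.25 for meningeal and perivascular fibroblast markers.

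Fibroblasts of the meninges and the perivascular space are cells of the brain surface and the vessel sheath. Of 19 marker genes of these cells all had a log2 fold change below 0, and edgeR called 2 lower, Col3a1 and Eln, and 0 higher, with 10 lower and 0 higher at an unadjusted p under 0.05, 7 lower and 0 higher by DESeq2, and 2 lower and 0 higher by limma-voom. Their median was -1.25. Their summed level was 157, 76.5 and 280 CPM across FAD5x replicates 1 to 3, against 508, 701 and 302 CPM across Control replicates 1 to 3. FAD5x replicate 2 was the lowest FAD5x library for this sum, for Acta2 and for Myh11, and Control replicate 3 was the lowest Control library for all 3. None of the 19 markers was at 0 over all libraries. Relative to the Control mean, the marker median was -1.10, -2.74 and -0.52 on the log2 scale in FAD5x and 0.20, 0.46 and -0.65 in Control. Between FAD5x replicate 3 and Control replicate 3 the order was not the same for all. The marker median was higher in the FAD5x library (-0.52 against -0.65), and so was Tagln (0.00 against -0.13). Acta2 (-0.80 against -0.18) and Myh11 (-0.76 against -0.38) were lower in it, as was the summed marker level (280 against 302 CPM). Surface arteries carry smooth muscle as well, and the part of the fibroblast markers in the values of Acta2, Myh11 and Tagln was not tested. Choroid plexus markers summed to 11.9, 5.18 and 11.4 CPM across FAD5x, against 21.2, 17.3 and 11.1 CPM across Control, red cell markers to 183, 196 and 190 CPM across FAD5x, against 299, 254 and 41.0 CPM across Control, microglia markers to 639, 283 and 408 CPM across FAD5x, against 233, 349 and 241 CPM across Control, and astrocyte markers to 6047, 3813 and 3430 CPM across FAD5x, against 3923, 5684 and 4238 CPM across Control. The ranges of these 4 sums overlapped between groups.

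**Figure D5:**
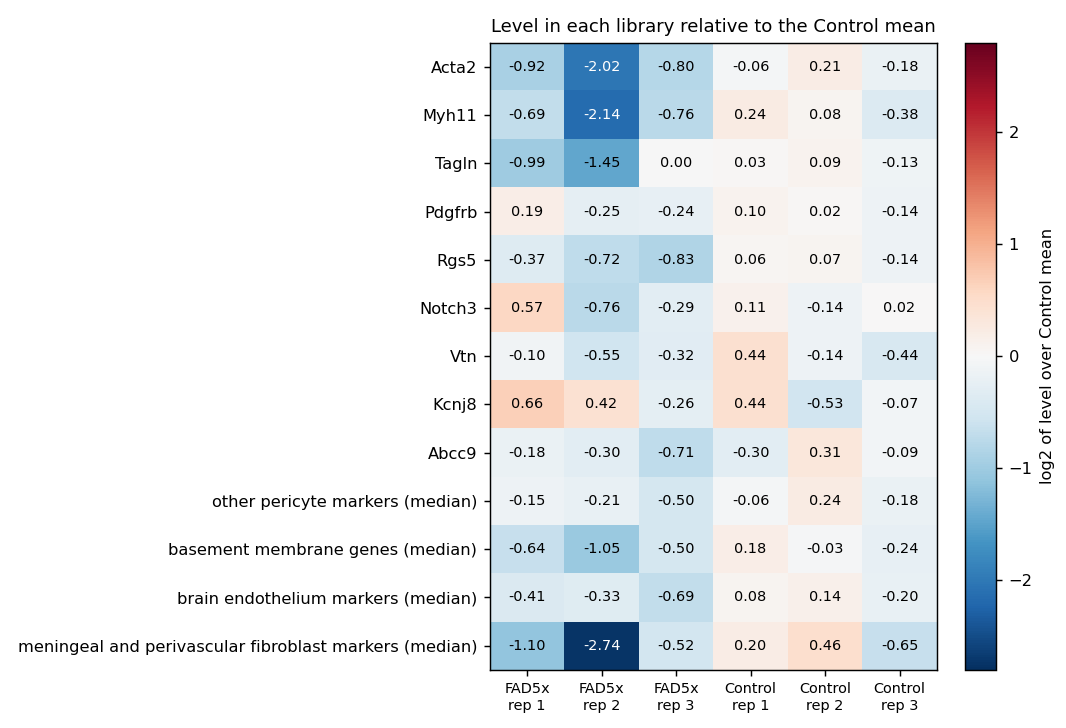
Log2 of the level in each library over the Control mean for the 9 genes and for the medians of 4 lists. FAD5x replicate 2 has the lowest value for Acta2 (-2.02), Myh11 (-2.14), Tagln (-1.45) and the fibroblast markers (-2.74).

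The 8 other genes whose levels ran closest to the mean of the 9 over the 6 libraries were Sfpq, Esyt2, Zfp462, Zfp26, Ppfia4, Tgfb2, N4bp2l2 and Helz2. Likeness was the root mean square difference of log2 CPM after centring each gene on its own mean, over 15455 candidates with a mean of at least 1 CPM. It ran from 0.046 for Sfpq, an RNA-binding protein gene, to 0.072 for Helz2. Among the 9 genes themselves the difference from their mean ran from 0.17 for Rgs5 to 0.56 for Kcnj8. The mean itself, relative to its average over libraries, was 0.06, -0.58 and -0.20 across FAD5x replicates 1 to 3, against 0.38, 0.26 and 0.09 across Control replicates 1 to 3. The 8 genes were picked from all candidates for their likeness over these same 6 libraries, which sets both this difference and their log2 fold changes of -0.55 to -0.37, and no test of them is given.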

How the data were processed

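Total RNA of flash frozen cortex was sequenced, per the labels' protocols; the library kit and strand are not given in the sources used here. The authors deposited raw counts per gene for 6 libraries, and the submitters' processing notes name the build GRCm39 and, without parameters, STAR 2.7.11b, cutadapt and featureCounts, besides limma and edgeR 3.38.4. One line with a cell that is not a number was left out, and symbols, exon lengths and overlaps came from GENCODE annotation of an earlier build (47223 identifiers matched, 505 not).

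Columns were matched to samples by the names in the labels. CPM and tests were computed here with edgeR 4.0.16 in R 4.3.3 (filterByExpr filter, trimmed mean of M values, robust quasi-likelihood F-test, 2-sided, intercept and genotype) over 17074 genes, with a biological coefficient of variation of 23.3%. Alternatives used DESeq2 1.42.0, limma-voom (limma 3.58.1), other scalings, filters and priors, a replicate block and each library left out. Members and the 19 gene lists were chosen with earlier results of these data known. Named genes are the 9 members, up to 4 called genes per list by smallest p or, with 0 called, the 2 of highest level, and the 8 genes most like the members' mean, on log2 of CPM plus 0.1. On simulated counts for 17074 genes of this comparison 86% of 100 genes changed 2-fold and 99% of 100 changed 4-fold were called, with 16 calls among unchanged genes, and 3 calls when no gene was changed. Those changed genes lay above the median level of 16.5 CPM, so the shares do not cover Acta2, Myh11, Tagln, Kcnj8 or Abcc9. A transcript of another gene at 90% identity or more over 20% of the member's transcript was found for Tagln alone, its antisense partner Gm48529. One gene of these lists is not reported here by name.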

Additional observations from a re-analysis of the deposited data

How the results depend on the processing

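All 9 fold changes kept their sign under the 14 alternatives tried, except that of Notch3. It changed sign in 3 fits that left out a library (0.21, 0.06 and 0.01) and ran from -0.51 to 0.21 over such fits. A kept sign says little for Pdgfrb, at 0.00 without FAD5x replicate 2 and -0.01 without FAD5x replicate 3. The same holds for Vtn, at -0.03 without Control replicate 1. No member was called higher in any alternative, and 2 were called lower with DESeq2 and 2 with no filter on low counts, Rgs5 and Acta2 in both, against 0. The number of all genes called higher was 574 with no filter, 763 with DESeq2 and 36 with the replicate block, against 300, and ran from 39 to 604 with single libraries left out. The number called lower was 489, 722 and 36 in the same order, against 237, and ran from 42 to 385. For genes of the other 18 lists, the number called higher was 5 with no filter and 8 with DESeq2, against 0, and 0 to 9 with single libraries left out. The number called lower was 19, 33 and, with the replicate block, 4, against 10, and 3 to 20. The cause was not tested. Replicate numbers showed no sign of pairing the samples. Same-numbered libraries deviated from their group means with correlations of -0.0427, -0.0928 and -0.305, and 0 of 6 libraries correlated best with its own number. The numbers within the library names follow another order, and pairing by them was not examined. With the replicate block the log2 fold changes were -1.21 for Acta2, -1.15 for Myh11 and -0.64 for Rgs5, and the number of members called was 0, as without it. Low counts limit Acta2, Myh11, Tagln and Kcnj8, with 30 to 142 reads per library, and intervals cover 3 libraries per group.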

Other observations

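Vitronectin binds integrins and the urokinase receptor. Of 10 genes of its partners 9 were tested and edgeR called 0, with 4 higher and 1 lower at an unadjusted p under 0.05, 4 higher and 1 lower by DESeq2, and 0 by limma-voom. The integrin chains Itgav and Itgb1, those of highest level, had log2 fold changes of -0.18 ± 0.13 and -0.52 ± 0.14. The libraries did not overlap in 4 of the 9 tested partners that were higher in FAD5x and in 2 that were lower, Itgav and Itgb1, against 14.1% higher and 13.2% lower of all tested genes. Of the 4, 3 are given here and were named after their values were seen. Plaur, the urokinase receptor, had 2.72, 1.55 and 2.67 CPM across FAD5x replicates 1 to 3, against 0.826, 0.393 and 0.615 CPM across Control replicates 1 to 3 (log2 fold change 1.92 ± 0.43, edgeR adjusted p = 0.0545). Plau, urokinase, had 9.07, 2.86 and 5.90 CPM across FAD5x, against 1.54, 2.47 and 2.35 CPM across Control (1.49 ± 0.43, adjusted p = 0.102). Itgb5, an integrin chain, had 98.2, 54.7 and 70.5 CPM across FAD5x, against 35.7, 52.6 and 37.3 CPM across Control (0.83 ± 0.24, adjusted p = 0.103). DESeq2 called these 3 higher, with adjusted p from 0.00565 to 0.0198, as did edgeR without FAD5x replicate 2, with 0.0137 to 0.0256. FAD5x replicate 2 was the lowest FAD5x library for these 3 genes, and microglia markers, given above, were lowest there too among FAD5x libraries. Their part in these values was not tested.

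Of 17 TGF-beta and BMP pathway genes edgeR called 0, with 3 higher and 3 lower at an unadjusted p under 0.05, 1 higher and 0 lower by DESeq2, and 0 by limma-voom, and the median log2 fold change was 0.04. Bmpr2, a BMP receptor, had a log2 fold change of -0.29 ± 0.16 and Smad3, a signal transducer of TGF-beta, one of 0.26 ± 0.17. Of 8 relatives of Rgs5 in the R4 family of G-protein regulators 5 were tested and edgeR called 0, with 1 higher and 1 lower at an unadjusted p under 0.05, 1 higher by DESeq2 and 0 by limma-voom. Rgs4, a neuronal member, had 216, 408 and 174 CPM across FAD5x, against 387, 393 and 578 CPM across Control, with overlap (log2 fold change -0.77 ± 0.32), and Rgs8 had a log2 fold change of -0.26 ± 0.36.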
